A study of Mus musculus with 12 samples.

Results

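The genes of fatty acid, triglyceride and cholesterol synthesis were followed across 4 siRNA groups of primary mouse hepatocytes. The set holds 45 genes listed by symbol and mapped to the Ensembl identifiers of the files, of 55385 identifiers in all. It has a lipogenic arm of 22 genes and a sterol arm of 23 genes, and all 45 were expressed highly enough to be among the 15090 genes tested. The rule for the list names functions and uses no measured value, but the members were chosen with earlier results of these data known. The hepatocytes, the main working cells of the liver, were freshly isolated from 3 mice and exposed for 48 h to short RNA duplexes (siRNAs) that lead to degradation of a matching transcript. The groups were cells given an siRNA against Hnf4a (siHnf4a), cells given an siRNA against Cebpa (siCebpa), cells given both (the double knockdown) and cells given a control siRNA (siCon), with 3 libraries in each. Every mouse supplied 1 library to each group. All groups, siCon included, were grown on plates coated with collagen, and their Williams' E medium held serum (10%), glutamine (2 mM), antibiotics, the glucocorticoid dexamethasone (100 nM) and an insulin, transferrin and selenium supplement (5%). The labels give no strain, sex or age of the mice. Insulin, glucocorticoid and serum were thus present in every group, and the values describe hepatocytes under these culture conditions.

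Lipid synthesis in the liver is controlled largely at transcription. The sterol regulatory element binding proteins (SREBPs) are made as membrane-bound precursors that are held in the endoplasmic reticulum by INSIG proteins when sterols are plentiful, and are cut to release the active factor when sterols are scarce or insulin is high. Products of Srebf1 mainly drive the lipogenic genes and the product of Srebf2 mainly the cholesterol genes, while ChREBP, encoded by Mlxipl, drives lipogenic and glycolytic genes in response to glucose. The factors removed here, the nuclear receptor HNF4A and the leucine zipper protein C/EBP alpha, keep up the expression programme of mature hepatocytes.

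Promoters of 5 genes are shown. Mlxipl, Elovl6, Acat2 and Sc5d are among the genes that changed in at least 1 knockdown. Thrsp and Me1 also changed and have windows, which are not shown. Hmgcs1 is the cholesterol gene whose window held both the word for the sterol regulatory element and an HNF4 word. The RefSeq windows run on GRCm38.p6 from 250 bases before to 50 bases after an annotated start, and 35 of the 45 genes matched at least 1 window, 48 windows in all. Those not matched were Scd1, Scd2, Fads1, Dgat1, Dgat2, Stard4, Acat3, Fdps, Fdft1 and Sqle. The words searched on both strands were the sterol regulatory element TCACNCCAC, the E-box CACGTG, the NF-Y box CCAAT, the Sp1 box GGGCGG, the HNF4 words CAAAGTCC and CAAAGGTCA, and the C/EBP word TTGCNNAA. Capitals mark exact matches, a match on the opposite strand appears as its reverse complement, and all windows are written 5′ to 3′ on the strand of the gene. The Elovl6 window held none of these words. Mlxipl has 2 windows, at chr5:135089640-135089939 and chr5:135106641-135106940 on the plus strand. Elovl6 lies at chr3:129532136-129532435 on the plus strand, Acat2 at chr17:12960676-12960975 on the minus strand, Sc5d at chr9:42264251-42264550 on the minus strand and Hmgcs1 at chr13:119690101-119690400 on the plus strand.
Mlxipl upstream start: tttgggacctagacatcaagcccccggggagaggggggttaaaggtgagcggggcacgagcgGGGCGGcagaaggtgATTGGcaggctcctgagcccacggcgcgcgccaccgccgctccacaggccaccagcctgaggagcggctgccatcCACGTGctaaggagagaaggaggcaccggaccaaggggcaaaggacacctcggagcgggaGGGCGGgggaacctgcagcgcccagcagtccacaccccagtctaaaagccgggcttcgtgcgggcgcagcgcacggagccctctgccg
Mlxipl downstream start: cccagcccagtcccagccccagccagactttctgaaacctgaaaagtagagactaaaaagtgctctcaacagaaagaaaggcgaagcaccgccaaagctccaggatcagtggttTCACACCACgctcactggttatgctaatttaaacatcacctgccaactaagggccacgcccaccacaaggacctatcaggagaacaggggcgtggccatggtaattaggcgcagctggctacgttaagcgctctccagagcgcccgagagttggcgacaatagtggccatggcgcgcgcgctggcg
Elovl6: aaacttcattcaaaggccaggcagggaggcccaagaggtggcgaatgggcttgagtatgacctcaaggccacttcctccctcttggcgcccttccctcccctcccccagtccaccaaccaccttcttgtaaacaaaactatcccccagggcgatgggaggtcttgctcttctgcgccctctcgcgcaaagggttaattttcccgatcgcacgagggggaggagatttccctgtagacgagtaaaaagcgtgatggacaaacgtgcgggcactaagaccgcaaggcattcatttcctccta
Acat2: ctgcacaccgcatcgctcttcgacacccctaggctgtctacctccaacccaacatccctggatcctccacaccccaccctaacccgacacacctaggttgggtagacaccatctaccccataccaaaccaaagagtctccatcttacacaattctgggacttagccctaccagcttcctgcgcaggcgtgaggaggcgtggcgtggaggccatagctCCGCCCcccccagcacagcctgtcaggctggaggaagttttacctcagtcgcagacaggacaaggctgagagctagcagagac
Sc5d: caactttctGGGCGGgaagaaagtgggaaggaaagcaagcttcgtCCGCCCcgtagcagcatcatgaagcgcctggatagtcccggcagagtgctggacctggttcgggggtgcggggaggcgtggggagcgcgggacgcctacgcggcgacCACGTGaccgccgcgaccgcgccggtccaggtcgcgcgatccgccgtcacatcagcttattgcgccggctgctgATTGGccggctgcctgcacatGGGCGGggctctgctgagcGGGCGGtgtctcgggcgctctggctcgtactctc
Hmgcs1: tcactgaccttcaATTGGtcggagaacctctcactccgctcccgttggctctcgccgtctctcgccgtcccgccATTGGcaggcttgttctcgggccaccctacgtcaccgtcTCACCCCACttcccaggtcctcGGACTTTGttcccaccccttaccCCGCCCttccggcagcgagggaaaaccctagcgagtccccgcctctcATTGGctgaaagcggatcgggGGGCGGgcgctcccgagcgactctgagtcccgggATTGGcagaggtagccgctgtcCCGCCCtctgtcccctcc

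The exact word searched for the sterol regulatory element, TCACNCCAC, matched few of these windows. It matched 1 of 25 lipogenic windows, the downstream Mlxipl start, where the match began 136 bases before the start, and 1 of 23 sterol windows, that of Hmgcs1, where it began 137 bases before the start. These matches are 4.0% of the lipogenic and 4.35% of the sterol windows, and the word matched 1.24% of all 32851 windows in the table. NF-Y and Sp1 boxes were common in the sterol arm: CCAAT was found in 17 of 23 sterol windows (73.9%), in 12 of 25 lipogenic windows (48.0%) and in 37.4% of all windows. GGGCGG was found in 19 of 23 sterol windows (82.6%), in 12 of 25 lipogenic windows (48.0%) and in 35.7% of all windows. The E-box was found in 4 sterol and 3 lipogenic windows, against 7.15% of all windows. The HNF4 word CAAAGTCC occurred only in the Hmgcs1 window (1.42% of all windows), CAAAGGTCA in none of the 48 windows (0.478% of all windows), and the C/EBP word in 2 windows of each arm (10.8% of all windows). Some genes, Mlxipl among them, count more than 1 time since they have several windows, and no overlaps between matches of different words were removed. A match is a description of letters, not a binding site, and the lack of an exact match does not show that an element is absent.

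The libraries held 22453445 to 25008195 estimated counts each, and 14081 to 14459 genes per library reached 10 counts. The siRNA targets were depleted as labelled. Hnf4a had 56.7, 59.2 and 46.4 CPM (counts scaled to library size) in siHnf4a cells of mice 1 to 3, 40.1, 33.5 and 34.1 CPM in the double knockdown, and 144, 248 and 297 CPM in siCon. Cebpa had 33.7, 30.3 and 26.1 CPM in siCebpa cells, 109, 89.0 and 84.5 CPM in the double knockdown, and 179, 211 and 189 CPM in siCon, so every double knockdown library held more Cebpa transcript than every siCebpa library. Hnf4a fell in siHnf4a (log2 fold change -2.085 ± 0.283, adjusted p = 0.000953) and in the double knockdown (-2.68 ± 0.29, adjusted p = 0.000233), and Cebpa fell in siCebpa (-2.68 ± 0.13, adjusted p = 7.05e-06, edgeR) and in the double knockdown (-1.03 ± 0.12, adjusted p = 0.000442). Among markers of other cells, the 5 adipocyte genes summed to at most 1.33 TPM, with Lep and Cfd at 0 in every library, and the 4 lymphocyte genes to at most 2.02 TPM. The 8 endothelial markers summed to 33.5 to 36.5 TPM in siHnf4a cells, 22.2 to 28.9 in siCebpa cells, 26.2 to 36.1 in the double knockdown and 30.2 to 39.9 in siCon. The 8 stellate cell markers summed to 31.4 to 47.2, 24.4 to 48.3, 24.9 to 47.9 and 43.7 to 50.03 TPM in the same order. In the macrophage list the 10 genes other than Cd68 stayed at or below 4.57 TPM (abundance scaled to gene length and library size), while Cd68 ranged from 61.5 to 551 TPM and was highest in mouse 1 in every group. Of its 9 genes tested, 8 had log2 fold changes below 0 in each knockdown, with medians of -0.99 for siHnf4a, -1.20 for siCebpa and -1.25 for both siRNAs. None of the 9 passed without the mouse block, and 2, 2 and 4 were called lower with it (22.2%, 22.2% and 44.4%). In that fit 30.0%, 16.8% and 29.5% of all genes tested passed in either direction. The 4 cholangiocyte markers summed to 8.50 to 10.2 TPM in siHnf4a cells, 8.24 to 15.1 in siCebpa cells and 6.18 to 7.34 in the double knockdown, below the 16.2 to 38.3 TPM of siCon. The 8 hepatocyte markers, of which Alb was the most abundant with Hpx, summed to 11257 to 15941 TPM in siHnf4a cells, 9690 to 20034 in siCebpa cells, 9017 to 12330 in the double knockdown and 15556 to 19941 in siCon. This sum weighs Alb and Hpx most, and single markers moved both ways. In siHnf4a against siCon, edgeR without the block called Fgb (log2 fold change 0.939, adjusted p = 0.0184) and Ass1 (0.836, 0.00572) higher. It called Hpx lower (-0.956, 0.0354), and Alb (0.105) was not called. Of the 8 markers 37.5% were called in siHnf4a and in the double knockdown, where 14.5% and 14.0% of all genes tested passed. In the double knockdown 1 marker was called higher and 2 lower. The part of these differences in the results was not tested, and in bulk RNA fewer cells of a type and less RNA per cell cannot be told apart.

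In siCon hepatocytes the levels of the pathway genes, as TPM, ranged more widely in the lipogenic arm than in the sterol arm. Dgat2, which encodes an enzyme of the last step of triglyceride synthesis, was by far the most abundant lipogenic transcript at 575 ± 248 TPM (SD, n = 3) and made up 35.7% of the arm's summed TPM. Me1, whose malic enzyme supplies NADPH, followed at 130 ± 8.68 TPM, and then the phosphatidate phosphatase gene Lpin2 at 119 ± 52.7, the acyltransferase gene Agpat2 at 109 ± 13.5 and the desaturase gene Scd1 at 102 ± 16.4 TPM. The wide Lpin2 range covered that of Me1 and those of Agpat2 and Scd1, which overlapped each other, while every Me1 library lay above every Agpat2 and Scd1 library. Fasn, the fatty acid synthase gene, had 77.7 ± 17.2 TPM, Mlxipl 80.8 ± 15.3 TPM and Srebf1 51.8 ± 7.03 TPM. The rate-setting carboxylase gene Acaca had 16.8 ± 3.90 TPM and the elongase gene Elovl6 8.04 ± 1.06 TPM, while the lipid droplet gene Pnpla3 was lowest at 0.906 ± 0.624 TPM.

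In the sterol arm the most abundant siCon transcripts were Sc5d, a late desaturase of the pathway, at 146 ± 8.06 TPM, Insig2 at 133 ± 22.7 TPM and the farnesyl diphosphate synthase gene Fdps at 124.5 ± 12.04 TPM. The ranges of Sc5d and Fdps just touched, and Insig2 overlapped with both. The thiolase paralogue Acat3 stood next at 58.2 ± 10.3 TPM, above Acat2 at 16.7 ± 2.16 TPM. Hmgcs1, which makes HMG-CoA, had 51.6 ± 4.59 TPM, Srebf2 47.9 ± 5.07 TPM and the squalene epoxidase gene Sqle 31.5 ± 1.57 TPM. Insig1 (9.22 ± 0.904 TPM), Mvd (8.41 ± 0.462 TPM) and the sterol carrier gene Stard4 (4.97 ± 0.866 TPM) were lowest.

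**Figure D1:**
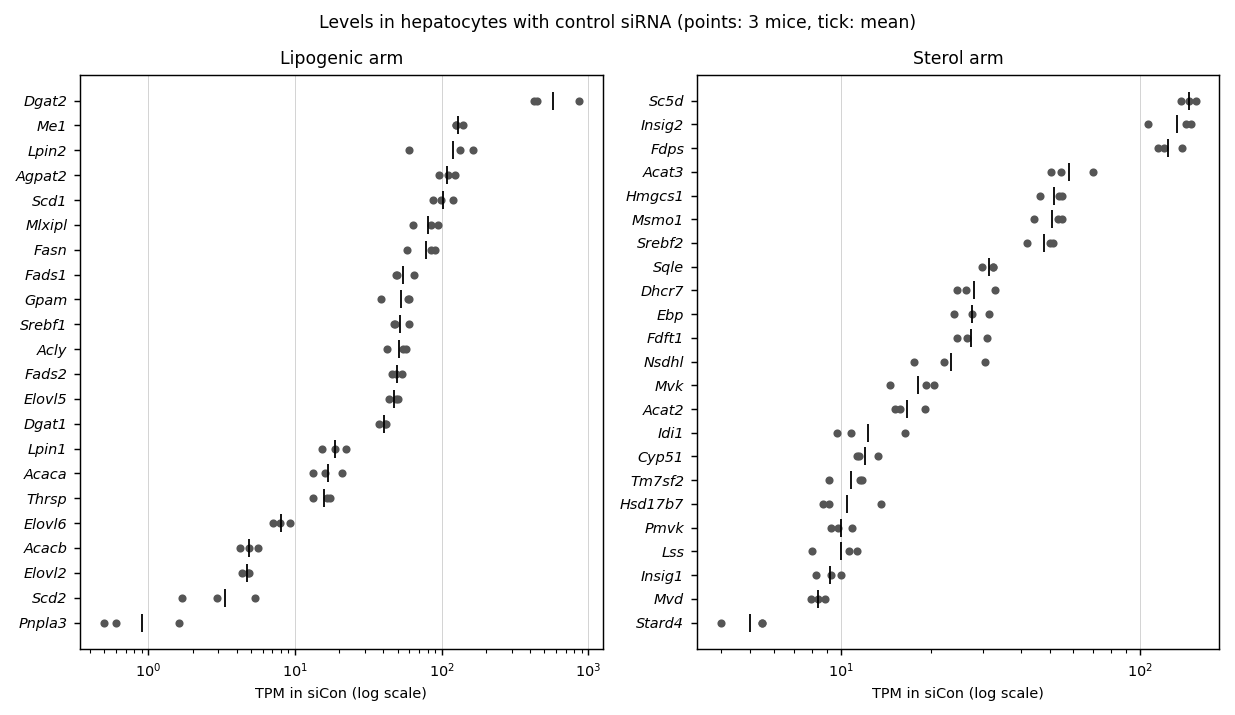
Levels of the 45 genes in siCon hepatocytes in TPM on a log scale, ordered by the mean within each arm; points are the 3 mice and the tick is their mean. Dgat2 (575 TPM) stands well above the other lipogenic genes, and Sc5d, Insig2 and Fdps lead the sterol arm.

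Loss of Hnf4a was accompanied by changes of single genes of both arms in both directions. In siHnf4a against siCon, 6 of the 45 genes (13.3%) passed an adjusted p of 0.05 (edgeR's quasi-likelihood test, Benjamini-Hochberg over all genes tested), where 14.5% of all genes tested passed, 7.24% higher and 7.29% lower. Thrsp, Me1 and Elovl6 rose, and Mlxipl, Acat2 and Acat3 fell. In the double knockdown against siCon 5 of 45 passed (11.1%), where 14.0% of all genes tested passed, 6.90% higher and 7.13% lower. Me1 and Elovl6 rose, and Mlxipl, Acat2 and Acat3 fell. In siCebpa against siCon only Sc5d passed, and it fell (2.22% of the set), where 4.67% of all genes tested passed, 2.94% higher and 1.72% lower. These 3 comparisons share the siCon libraries. By arm, 4 of 22 lipogenic genes (18.2%) and 2 of 23 sterol genes (8.70%) passed in siHnf4a, 0 and 1 (4.35%) in siCebpa, and 3 (13.6%) and 2 (8.70%) in the double knockdown.

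The median change of each arm was small, with single genes moving in both directions. The median log2 fold change of the lipogenic arm was 0.05 for siHnf4a, -0.08 for siCebpa and -0.17 for the double knockdown, that of the sterol arm was -0.03, 0.04 and -0.03 in the same order, and that of all genes tested was 0.00 for each. The libraries of knockdown and siCon did not overlap for 16 of the 45 genes with siHnf4a, 6 with siCebpa and 13 with both siRNAs, where 33.7%, 23.7% and 32.8% of all genes tested did not overlap.

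With the mouse fitted as a block, which is the paired form of the test since each mouse gave 1 library to each group, more genes passed: 16 of 45 in siHnf4a against siCon, 5 in siCebpa and 12 in the double knockdown, where 30.0%, 16.8% and 29.5% of all genes tested passed in the same fit. The lipogenic arm had 10 of 22 genes past the threshold with siHnf4a (45.5%), 4 with siCebpa (18.2%) and 8 with both siRNAs (36.4%). The sterol arm had 6 of 23 with siHnf4a (26.1%), 1 with siCebpa (4.35%) and 4 with both siRNAs (17.4%). The lipogenic shares lay above those of all genes in siHnf4a and the double knockdown, and close to it in siCebpa (18.2% against 16.8%). The sterol shares lay below those of all genes, though close in siHnf4a (26.1% against 30.0%). These differences in share were not tested. In siHnf4a cells the block added Acacb, Scd1 and Ebp to the genes that rose, and Acly, Fasn, Elovl2, Elovl5, Srebf2, Nsdhl and Hsd17b7 to those that fell. In siCebpa cells it added Me1 and Elovl6 (higher) and Scd2 and Fads2 (lower). In the double knockdown it added Thrsp (higher) and Acly, Fasn, Elovl2, Elovl5, Nsdhl and Hsd17b7 (lower).

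**Figure D2:**
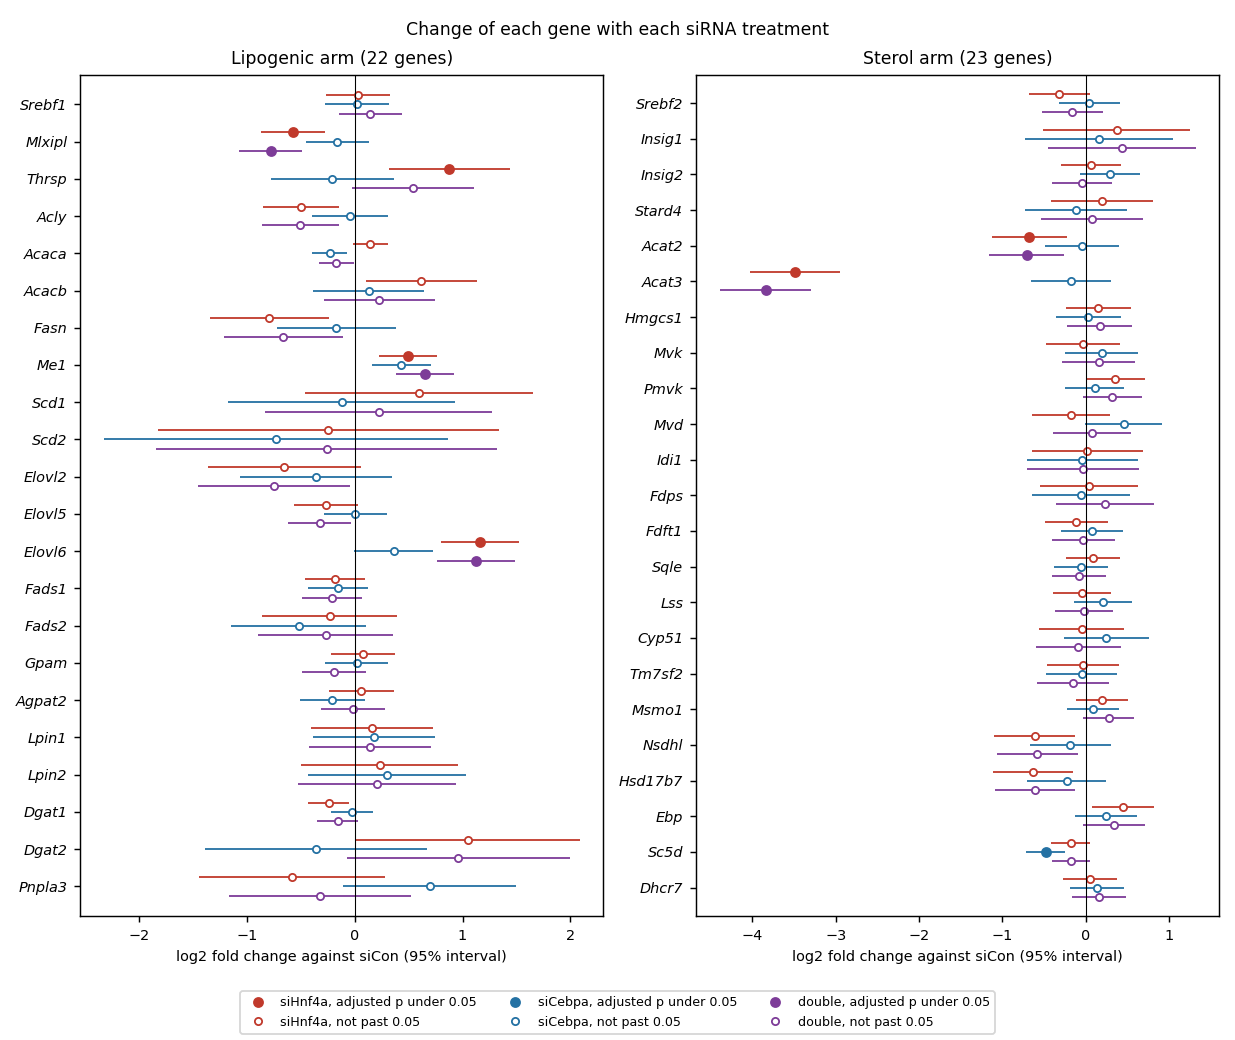
Log2 fold change of each gene against siCon with its 95% interval, siHnf4a above siCebpa above the double knockdown, for the 22 lipogenic and 23 sterol genes; filled points passed an adjusted p of 0.05 in edgeR without the mouse block. Most points lie near 0, and Acat3 lies at -3.49 in siHnf4a and -3.84 in the double knockdown.

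Among the regulators of the lipogenic arm, Srebf1 and Mlxipl behaved differently. Srebf1 had 89.8, 97.9 and 127 CPM in siHnf4a cells, 97.6, 112 and 103 CPM in siCebpa cells, 106, 104 and 130 CPM in the double knockdown, and 95.7, 109 and 103 CPM in siCon. All groups overlapped, and the log2 fold changes against siCon were 0.03 ± 0.13 (SE) in siHnf4a, 0.02 ± 0.13 in siCebpa and 0.14 ± 0.13 with both siRNAs, none past the threshold. The 95% intervals reached from -0.26 to 0.32 in siHnf4a and from -0.15 to 0.44 in the double knockdown. The values are sums over the transcripts of the gene and cannot tell the SREBP isoforms of Srebf1 apart, and they say nothing of the cutting of the precursor protein.

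Mlxipl had 75.2, 77.6 and 68.3 CPM in siHnf4a cells, 88.9, 96.9 and 108 CPM in siCebpa cells, 69.1, 61.8 and 60.4 CPM in the double knockdown, and 85.6, 121 and 123 CPM in siCon. Every siHnf4a and double knockdown library lay below every siCon library, whereas siCebpa overlapped with siCon. Mlxipl fell by 0.57 ± 0.13 on the log2 scale in siHnf4a (adjusted p = 0.0165) and by 0.78 ± 0.13 in the double knockdown (adjusted p = 0.00339), and its change in siCebpa was -0.16 ± 0.13 (adjusted p = 0.552). The siHnf4a call was lost without the mouse 3 siHnf4a library (adjusted p = 0.06002) and without the siCon library of mouse 2 (0.0713) or mouse 3 (0.0692). Mlxipl was also lower in the double knockdown than in siCebpa cells, by -0.62 ± 0.13 on the log2 scale (adjusted p = 0.0128). That call was lost without the mouse 3 siCebpa library (adjusted p = 0.0523) and without the mouse 2 (0.0590) or mouse 3 (0.0562) double knockdown library.

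Thrsp, whose thyroid hormone responsive protein promotes lipogenesis in liver, had 22.7, 19.7 and 23.2 CPM in siHnf4a cells, 15.4, 7.46 and 8.01 CPM in siCebpa cells, 19.9, 13.6 and 18.5 CPM in the double knockdown, and 13.3, 9.88 and 12.5 CPM in siCon. The siHnf4a and siCon libraries did not overlap, and nor did the double knockdown and siCon libraries, while siCebpa spread across the siCon range. Thrsp rose by 0.88 ± 0.26 on the log2 scale in siHnf4a (adjusted p = 0.0432), a call that was lost whichever of the 6 libraries was left out (adjusted p from 0.0591 to 0.168). Its log2 fold change was 0.54 ± 0.26 in the double knockdown (adjusted p = 0.195, or 0.0318 with the mouse block).

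Without the mouse block, edgeR's fit of all 12 libraries called only Me1 and Elovl6 of the 12 fatty acid synthesis genes against siCon. With the block, which pairs libraries by mouse, the central genes Fasn and Acly were among those added. Each was lower with siHnf4a and with both siRNAs. Elovl6, which encodes the elongase of saturated and monounsaturated fatty acids, had 52.3, 61.6 and 77.9 CPM in siHnf4a cells, 33.3, 34.9 and 41.8 CPM in siCebpa cells, 58.5, 62.6 and 66.1 CPM in the double knockdown, and 26.5, 24.4 and 34.8 CPM in siCon. All siHnf4a and double knockdown libraries lay above all siCon and all siCebpa libraries. Elovl6 rose by 1.16 ± 0.17 on the log2 scale in siHnf4a (2.24-fold, adjusted p = 0.00129) and by 1.13 ± 0.17 in the double knockdown (2.18-fold, adjusted p = 0.00139), and kept both calls in each of the 14 alternative analyses of each comparison. In siCebpa it was higher than siCon in each of the 3 mice, by 0.36 ± 0.16 (adjusted p = 0.2502, or 0.0215 with the mouse block). It was also higher in siHnf4a than in siCebpa (0.80 ± 0.16, adjusted p = 0.00848) and in the double knockdown than in siCebpa (0.77 ± 0.16, adjusted p = 0.0124).

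Me1 had 379.5, 391.9 and 416.1 CPM in siHnf4a cells, 339, 359 and 439 CPM in siCebpa cells, 386, 433 and 506 CPM in the double knockdown, and 274, 266 and 302 CPM in siCon. Every library of every knockdown lay above every siCon library. Me1 rose by 0.49 ± 0.12 on the log2 scale in siHnf4a (adjusted p = 0.0224) and by 0.65 ± 0.12 in the double knockdown (adjusted p = 0.00578), and its change in siCebpa was 0.43 ± 0.12 (adjusted p = 0.0758, or 0.00400 with the mouse block and 0.0161 in DESeq2). The siHnf4a call was lost without the mouse 2 (adjusted p = 0.0565) or mouse 3 (0.0591) siHnf4a library and without the mouse 1 (0.0541) or mouse 2 (0.0773) siCon library. Of the 31-base words of Me1 transcripts, 28.6% also occur in the predicted gene Gm7049, so part of its reads could be shared with that gene, which had 0.510 to 2.51 CPM.

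Acly and Fasn, which encode the enzymes that make cytosolic acetyl-CoA and assemble fatty acids from it, had log2 fold changes below 0 in siHnf4a and in the double knockdown that did not pass the threshold without the mouse block. Fasn had 83.7, 103 and 147 CPM in siHnf4a cells, 133, 176 and 205 CPM in siCebpa cells, 96.4, 115 and 153 CPM in the double knockdown, and 147, 218 and 213 CPM in siCon. It was lower than siCon within each of the 3 mice in all knockdowns, but the highest siHnf4a library and the lowest siCon library, from different mice, had nearly the same value. Its log2 fold change was -0.79 ± 0.25 in siHnf4a (adjusted p = 0.0586) and -0.66 ± 0.25 in the double knockdown (adjusted p = 0.106), against -0.81 ± 0.09 (adjusted p = 0.000146) and -0.67 ± 0.09 (adjusted p = 0.000433) with the mouse block. In siHnf4a it also passed in 5 alternatives without the block, DESeq2 among them (adjusted p = 0.0126). Acly had 82.4, 102 and 115 CPM in siHnf4a cells, 120, 140 and 149 CPM in siCebpa cells, 81.8, 98.2 and 118 CPM in the double knockdown, and 121, 147 and 155 CPM in siCon. The siHnf4a and double knockdown libraries lay below all siCon libraries. The log2 fold change of Acly was -0.50 ± 0.16 in siHnf4a (adjusted p = 0.0637, or 0.000272 with the mouse block) and -0.51 ± 0.16 in the double knockdown (adjusted p = 0.0606, or 0.000232 with the block). It also passed without the block in 3 alternatives in siHnf4a and in 5 in the double knockdown, with DESeq2 at an adjusted p of 0.02495 and 0.02596.

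**Figure D3:**
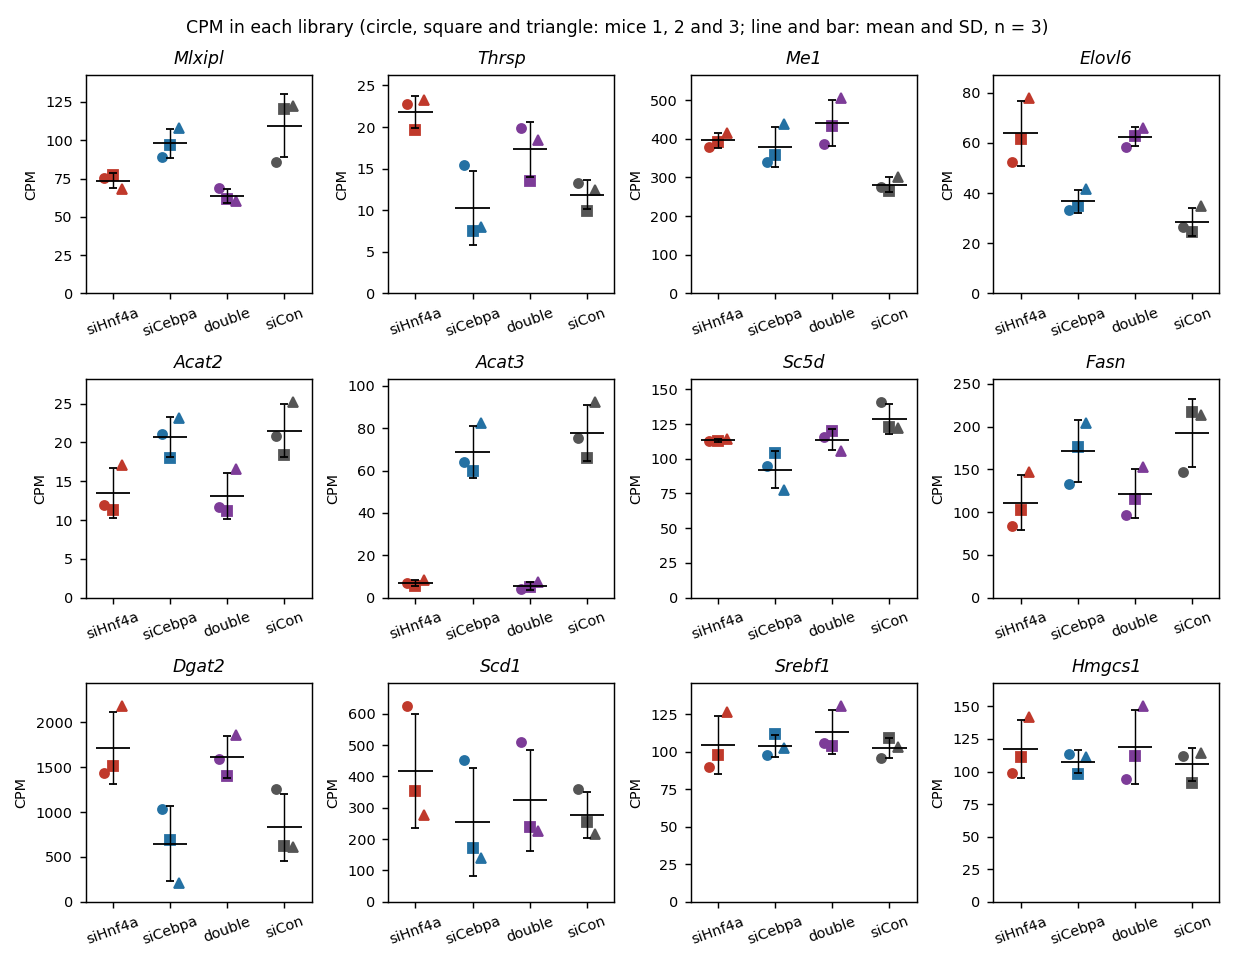
CPM of 12 genes in each library, with siHnf4a, siCebpa, the double knockdown and siCon from left to right; circles, squares and triangles are mice 1, 2 and 3, and the line and bar are the mean and SD of 3 mice. Acat3 is below 10 CPM in all siHnf4a and double knockdown libraries and above 59 CPM in all others, whereas Srebf1 and Hmgcs1 overlap between all groups.

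Of the carboxylase genes for malonyl-CoA, Acaca differed between siHnf4a and siCebpa cells. It had 81.2, 84.9 and 83.2 CPM in siHnf4a cells, 65.6, 61.4 and 64.5 CPM in siCebpa cells, 66.7, 61.1 and 72.6 CPM in the double knockdown, and 72.2, 78.9 and 74.3 CPM in siCon. The siHnf4a libraries lay above and the siCebpa libraries below all siCon libraries. Neither difference from siCon passed the threshold (0.15 ± 0.07 in siHnf4a, adjusted p = 0.228, and -0.23 ± 0.07 in siCebpa, adjusted p = 0.105), but siHnf4a against siCebpa did, with a log2 fold change of 0.38 ± 0.07 (adjusted p = 0.00705). Acaca shares 31.7% of its 31-base words with the predicted gene Gm5182. Acacb, the carboxylase linked to control of fatty acid oxidation, had 46.25, 45.04 and 25.33 CPM in siHnf4a cells against 22.93, 28.10 and 25.04 CPM in siCon, and 32.9, 23.7 and 26.6 CPM in siCebpa cells and 35.9, 30.7 and 22.6 CPM in the double knockdown. The siHnf4a and double knockdown libraries of mice 1 and 2 and the siCebpa library of mouse 1 lay above every siCon library, and the mouse 3 library of each knockdown did not. The log2 fold change of Acacb in siHnf4a was 0.62 ± 0.23 (adjusted p = 0.106, or 0.0338 with the mouse block, and 0.0253 without the mouse 3 siHnf4a library).

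Expression of the desaturase genes Scd1 and Scd2 varied widely between mice. Scd1 had 623, 354 and 278 CPM in siHnf4a cells, 451, 172 and 140 CPM in siCebpa cells, 508, 237 and 225 CPM in the double knockdown, and 360, 254 and 217 CPM in siCon. It was highest in mouse 1 in every group, and all groups overlapped. Its log2 fold change against siCon was 0.59 ± 0.48 in siHnf4a (adjusted p = 0.457, or 0.0230 with the mouse block), -0.12 ± 0.48 in siCebpa and 0.22 ± 0.48 in the double knockdown. Scd2 ran the other way between mice, with 3.38, 7.45 and 14.0 CPM in siHnf4a cells, 1.64, 5.87 and 10.2 CPM in siCebpa cells, 3.54, 6.54 and 14.5 CPM in the double knockdown, and 4.64, 9.03 and 15.7 CPM in siCon. It was highest in mouse 3 in every group, and its change in siCebpa was -0.73 ± 0.72 (adjusted p = 0.633), against -0.84 ± 0.16 (adjusted p = 0.00705) with the mouse block. Scd1 and Scd2 share 253 words of 31 bases, 5.18% of those of Scd1. Elovl2 and Elovl5, which elongate polyunsaturated fatty acids, were lower than siCon in each of the 3 mice in siHnf4a and in the double knockdown. Their log2 fold changes were -0.65 ± 0.32 and -0.27 ± 0.13 in siHnf4a and -0.75 ± 0.32 and -0.33 ± 0.13 in the double knockdown, past the threshold only with the mouse block (adjusted p = 0.0135 and 0.0314 in siHnf4a, 0.00742 and 0.0138 in the double knockdown). The desaturase genes Fads1 and Fads2 had log2 fold changes from -0.52 to -0.15 over the 3 knockdowns, with Fads2 in siCebpa the lowest at -0.52 ± 0.28 (adjusted p = 0.340, or 0.0138 with the block).

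None of the 7 triglyceride synthesis genes passed the threshold in any knockdown against siCon. The largest differences in siHnf4a and in the double knockdown were those of Dgat2, which had 1441, 1519 and 2178 CPM in siHnf4a cells, 1039, 692 and 210 CPM in siCebpa cells, 1587, 1400 and 1855 CPM in the double knockdown, and 1259, 621 and 607 CPM in siCon. The siHnf4a and the double knockdown libraries lay above all siCon libraries, and the siCebpa libraries lay within and below the siCon range. The log2 fold changes were 1.047 ± 0.472 in siHnf4a (adjusted p = 0.171), -0.36 ± 0.47 in siCebpa (adjusted p = 0.730) and 0.96 ± 0.47 in the double knockdown (adjusted p = 0.211). With the mouse block the difference between siHnf4a and siCebpa was 1.54 (adjusted p = 0.0232) and that between the double knockdown and siCebpa 1.43 (adjusted p = 0.0340). The acyltransferase genes Gpam and Agpat2 and the phosphatase genes Lpin1 and Lpin2 had log2 fold changes from -0.21 to 0.30 in the 3 knockdowns. Dgat1 was lower than every siCon library in siHnf4a and the double knockdown, by a log2 fold change of -0.24 ± 0.09 (adjusted p = 0.0894) and -0.16 ± 0.09 (adjusted p = 0.264). Pnpla3 had the largest difference in siCebpa, a log2 fold change of 0.69 ± 0.37 (adjusted p = 0.318), on a mean of 12 counts per library.

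The weight of Dgat2 set the summed level of the arm. The 22 lipogenic genes summed to 2033, 2119 and 2614 TPM in siHnf4a cells, 1569, 1324 and 1112 TPM in siCebpa cells, 2126, 1944 and 2306 TPM in the double knockdown, and 1799, 1513 and 1527 TPM in siCon. Every siHnf4a and double knockdown sum lay above every siCon sum, and the siCebpa sums overlapped with siCon. Without Dgat2 the sums were 1061 to 1103 TPM in siHnf4a cells, 884 to 982 TPM in siCebpa cells, 964 to 1066 TPM in the double knockdown and 938 to 1104 TPM in siCon, and each knockdown range overlapped with that of siCon.

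In the sterol arm no regulator passed the threshold without the mouse block. Srebf2 had 82.68, 90.82 and 117.3 CPM in siHnf4a cells, 116, 126 and 130 CPM in siCebpa cells, 92.2, 97.0 and 134 CPM in the double knockdown, and 104, 127 and 132 CPM in siCon. The groups overlapped, and the log2 fold change was -0.32 ± 0.17 in siHnf4a (adjusted p = 0.240, or 0.0208 with the mouse block), 0.04 ± 0.17 in siCebpa and -0.16 ± 0.17 in the double knockdown. Insig1, which encodes a protein that retains SREBP precursors and is itself an SREBP target, had 13.4, 16.3 and 32.4 CPM in siHnf4a cells, 24.6, 15.4 and 13.6 CPM in siCebpa cells, 14.8, 14.7 and 35.3 CPM in the double knockdown, and 17.8, 14.2 and 15.9 CPM in siCon. The mouse 3 library stood above the other two in siHnf4a and in the double knockdown, and without it the log2 fold change was -0.11 in siHnf4a and -0.12 in the double knockdown, against 0.37 ± 0.40 and 0.43 ± 0.40 with it. Insig2 and Stard4 had log2 fold changes between -0.12 and 0.29 in the 3 knockdowns, none past the threshold.

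The thiolase genes Acat2 and Acat3, at the entry of the pathway, were the only sterol genes past the threshold in siHnf4a and in the double knockdown in edgeR's fit of all 12 libraries without the mouse block. Acat3 had 6.76, 5.72 and 8.31 CPM in siHnf4a cells, 64.1, 59.7 and 82.6 CPM in siCebpa cells, 3.90, 4.98 and 7.39 CPM in the double knockdown, and 75.2, 65.8 and 92.3 CPM in siCon. Levels in siHnf4a and the double knockdown lay below 10 CPM in all 6 libraries, and siCebpa overlapped with siCon. Acat3 fell in siHnf4a (log2 fold change -3.49 ± 0.24, 8.92% of siCon, adjusted p = 2.73e-05) and in the double knockdown (-3.84 ± 0.25, 6.97% of siCon, adjusted p = 2.01e-05), and both calls held in each of the 14 alternative analyses of each comparison. Its change in siCebpa was -0.18 ± 0.22 (adjusted p = 0.711), and the direct comparison of siHnf4a with siCebpa gave -3.31 ± 0.24 (adjusted p = 3.22e-05).

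Acat2, the cytosolic acetoacetyl-CoA thiolase gene at chr17:12942890-12960747, lies next to Acat3 at chr17:12923813-12940600, both on the minus strand (GRCm38). It had 11.9, 11.2 and 17.1 CPM in siHnf4a cells, 21.1, 18.0 and 23.2 CPM in siCebpa cells, 11.6, 11.2 and 16.5 CPM in the double knockdown, and 20.8, 18.4 and 25.2 CPM in siCon. All siHnf4a and double knockdown libraries lay below all siCon libraries. Acat2 fell by 0.68 ± 0.20 on the log2 scale in siHnf4a (adjusted p = 0.0478) and by 0.71 ± 0.20 in the double knockdown (adjusted p = 0.0402). Without the mouse 1 or mouse 2 library of the knockdown, or any siCon library, the adjusted p was 0.0672 to 0.173 in siHnf4a and 0.0547 to 0.149 in the double knockdown. Both calls were also lost when only the compared groups were fitted (adjusted p = 0.0598 in siHnf4a and 0.0557 in the double knockdown). Acat2 and Acat3 are near copies: 1123 words of 31 bases are shared, which is 43.7% of those of Acat2 and 46.9% of those of Acat3, so their reads could be split, and both values are uncertain to that extent. In addition, 571 exonic bases of Acat3 (23.5%) overlap Tcp1 on the opposite strand, and the labels give no strand setting. Tcp1 had a mean of 8449 counts and log2 fold changes of 0.17, 0.20 and 0.15 in siHnf4a, siCebpa and the double knockdown, none past the threshold.

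From acetoacetyl-CoA to farnesyl diphosphate, the other 6 genes did not pass. Hmgcs1 had 99.0, 111 and 142 CPM in siHnf4a cells, 114, 97.9 and 112 CPM in siCebpa cells, 94.0, 112 and 150 CPM in the double knockdown, and 112, 90.9 and 114 CPM in siCon. The groups overlapped, with log2 fold changes of 0.15 ± 0.18 with siHnf4a, 0.03 ± 0.18 with siCebpa and 0.17 ± 0.18 with both. The mevalonate and isopentenyl steps encoded by Mvk, Pmvk, Mvd, Idi1 and Fdps had log2 fold changes from -0.18 (Mvd in siHnf4a) to 0.45 (Mvd in siCebpa). Pmvk was above siCon in all mice in siHnf4a (8.27, 8.27 and 10.4 CPM, against 7.82, 6.77 and 6.51 CPM in siCon), with a log2 fold change of 0.35 ± 0.16 that did not pass (adjusted p = 0.175).

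From squalene to cholesterol, 11 genes gave 1 call against siCon without the mouse block. Sc5d, which encodes the desaturase that acts just before the last reductase steps, had 113, 113 and 114 CPM in siHnf4a cells, 94.5, 104 and 77.8 CPM in siCebpa cells, 116, 120 and 105 CPM in the double knockdown, and 141, 123 and 122 CPM in siCon. The libraries of each knockdown lay below all siCon libraries, those of siCebpa lowest. Sc5d fell by 0.48 ± 0.11 on the log2 scale in siCebpa (adjusted p = 0.0325), and its change was -0.18 ± 0.11 in both siHnf4a and the double knockdown. Without the mouse 1 or mouse 3 siCebpa library, or any siCon library, the adjusted p was 0.0516 to 0.1003, and the call was also lost when only the compared groups were fitted (adjusted p = 0.143). The interaction for Sc5d, which is the effect of both siRNAs less the sum of the single effects, was 0.49 ± 0.15 (adjusted p = 0.2996, or 0.0555 with the mouse block).

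Nsdhl and Hsd17b7, which encode enzymes of sterol demethylation, were lower than siCon within each of the 3 mice in all knockdowns. Nsdhl had 18.6, 19.8 and 24.9 CPM in siHnf4a cells, 24.0, 24.8 and 36.3 CPM in siCebpa cells, 19.3, 19.7 and 25.8 CPM in the double knockdown, and 24.9, 30.0 and 42.1 CPM in siCon. The siHnf4a and siCon libraries did not overlap, though only just. The log2 fold change of Nsdhl was -0.62 ± 0.22 in siHnf4a (adjusted p = 0.0912) and -0.58 ± 0.22 in the double knockdown (adjusted p = 0.110), against -0.60 ± 0.08 (adjusted p = 0.000472) and -0.57 ± 0.08 (adjusted p = 0.000629) with the mouse block. Hsd17b7 had log2 fold changes of -0.63 ± 0.22 in siHnf4a (adjusted p = 0.0783, or 0.000535 with the block) and -0.61 ± 0.22 in the double knockdown (adjusted p = 0.0893, or 0.000653 with the block). DESeq2, fitted without the block, called Nsdhl in siHnf4a (adjusted p = 0.0449) and Hsd17b7 in siHnf4a (0.0339) and in the double knockdown (0.0482). Ebp, the sterol isomerase gene, had 43.4, 36.9 and 28.1 CPM in siHnf4a cells against 26.4, 27.6 and 25.3 CPM in siCon, a log2 fold change of 0.45 ± 0.17 (adjusted p = 0.101, or 0.0247 with the block, and 0.0412 without the mouse 3 siHnf4a library).

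Sqle, the gene of the epoxidase step, had 63.6, 55.3 and 62.2 CPM in siHnf4a cells, 66.4, 47.8 and 49.1 CPM in siCebpa cells, 50.4, 45.9 and 64.1 CPM in the double knockdown, and 59.5, 52.4 and 58.2 CPM in siCon. All groups overlapped, with log2 fold changes of 0.09 ± 0.15, -0.06 ± 0.15 and -0.08 ± 0.15 in siHnf4a, siCebpa and the double knockdown. Fdft1, Lss, Cyp51, Tm7sf2, Msmo1 and Dhcr7 had log2 fold changes between -0.15 and 0.27, none past the threshold with or without the mouse block. The 95% interval of Lss in siHnf4a ran from -0.40 to 0.30 and that of Cyp51 from -0.56 to 0.46. Fdft1 overlaps Ctsb on the opposite strand over 18.3% of its exonic bases. Fdps and Tm7sf2 overlap Gm43738 and Vps51, and such totals can hold reads of the other gene. Mean counts were 30345 for Ctsb against 1110 for Fdft1, 1157.5 for Vps51 against 211 for Tm7sf2, and 3.4 for Gm43738 against 2320 for Fdps. Ctsb passed only with the mouse block, higher in siCebpa (adjusted p = 0.00856) and in the double knockdown (0.0130). Vps51 passed in no knockdown. The part of such reads in the results was not tested.

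The summed TPM of the 23 sterol genes was 740, 741 and 887 in siHnf4a cells, 825, 737 and 750 in siCebpa cells, 778, 729 and 918 in the double knockdown, and 869, 846 and 904 in siCon. The siHnf4a and double knockdown sums overlapped with those of siCon, and the 3 siCebpa sums lay below them. On the TPM scale, however, the median of all genes in siCebpa was also below siCon, by a log2 difference of -0.118 (pseudocount 1) or -0.135 (pseudocount 0.1). On the TMM-scaled CPM used in the tests, 13 of the 23 sterol genes lay above 0 in siCebpa, with a median of 0.04. Without Acat3 the sums were 735 to 881 TPM in siHnf4a cells, 695 to 783 in siCebpa cells, 725 to 913 in the double knockdown and 795 to 834 in siCon.

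Mouse of origin was visible across the sterol arm. Of the 23 genes, 18 were highest in mouse 3 in siHnf4a, 10 in siCebpa, 20 in the double knockdown and 15 in siCon, where 38.5%, 35.9%, 35.1% and 30.97% of all genes tested were highest in that mouse. In siCebpa mouse 1 was the highest for more sterol genes than mouse 3, with 12 of the 23. Within mice, the median log2 ratio of the sterol arm in siHnf4a over siCon was -0.17 in mouse 1, -0.13 in mouse 2 and 0.10 in mouse 3. In the double knockdown over siCon it was -0.17, -0.11 and 0.14 in mice 1 to 3, and in siCebpa over siCon 0.18, 0.01 and -0.12. The sign of the arm's median thus differed between mouse 3 and mouse 1 in each of the 3 knockdowns. The lipogenic arm had medians of 0.02, -0.11 and -0.15 in siHnf4a, 0.06, -0.19 and -0.08 in siCebpa and 0.06, -0.23 and -0.09 in the double knockdown.

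**Figure D4:**
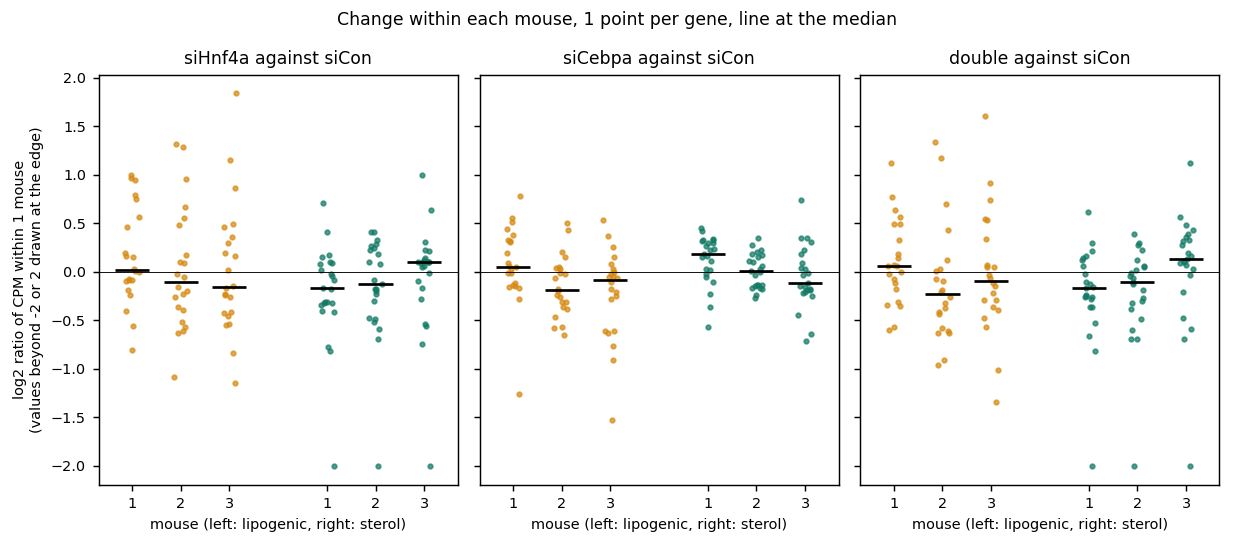
Log2 ratio of CPM between a knockdown and siCon of the same mouse, 1 point per gene, lipogenic genes left and sterol genes right in each panel, with a line at the median; a value beyond the axis limits is drawn at the edge. The sterol medians are below 0 in mice 1 and 2 and above 0 in mouse 3 in siHnf4a and the double knockdown, and above 0 in mice 1 and 2 and below 0 in mouse 3 in siCebpa.

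The knockdowns were also compared with each other. In the double knockdown against siHnf4a none of the 45 genes passed (1 of them had an unadjusted p under 0.05 in edgeR, and DESeq2 called 0), where 0.00663% of all genes tested passed. The gene with the unadjusted p was Acaca, chosen here after its value was seen, with a log2 fold change of -0.31 ± 0.07 and an adjusted p of 1.00. In the double knockdown against siCebpa 3 passed (13.0% of all genes tested passed), Elovl6 higher and Mlxipl and Acat3 lower, and 15 with the mouse block (27.3%). In siHnf4a against siCebpa 5 passed (16.2% of all genes tested passed): Thrsp (1.09 ± 0.26), Acaca and Elovl6 were higher and Acat3 and Pnpla3 lower, and 19 passed with the mouse block (31.2%). The Thrsp call was lost when only the compared groups were fitted (adjusted p = 0.0649), without the mouse 3 siHnf4a library (adjusted p = 0.0501) and without the mouse 2 (0.0675) or mouse 3 (0.0680) siCebpa library. The Pnpla3 call rested on 12 counts per library and was lost whichever of the 6 libraries was left out (adjusted p from 0.0516 to 0.166). For the interaction none of the 45 genes passed in edgeR, with or without the mouse block, and none in DESeq2. Of them 1, Sc5d, had an unadjusted p under 0.05 in edgeR and 7 with the block. Of all genes tested 0.0861% passed, or 3.82% with the block. The log2 fold change of Cebpa against siCon was -1.03 in the double knockdown and -2.68 in siCebpa. The comparison of the double knockdown with siHnf4a thus covers a weaker Cebpa depletion than siCebpa, and the interaction sets unlike depletions together. The part of this difference in the results was not tested.

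Genes of the pathway outside the set, taken from lists by function that were also chosen with earlier results known, showed the following. Of 18 further fatty acid and triglyceride genes tested, 5 (27.8%) rose and none fell in siHnf4a and in the double knockdown, where 7.24% and 6.90% of all genes tested rose, and none passed in siCebpa. With the mouse block 6 were higher and 3 lower in siHnf4a, 1 higher and 1 lower in siCebpa, and 5 higher and 4 lower in the double knockdown. Lower with the block were Tecr, Fads3 and the citrate carrier gene Slc25a1 in siHnf4a and in the double knockdown, Hsd17b12 in the double knockdown, and Slc25a1 in siCebpa. The 5 that rose without the block were Hacd3 (log2 fold change 1.46 ± 0.17 in siHnf4a and 1.54 ± 0.17 in the double knockdown), the elongase gene Elovl7 (1.30 ± 0.36 and 1.33 ± 0.36), the acetyl-CoA synthetase gene Acss2 (1.23 ± 0.14 and 1.21 ± 0.14), Lpin3 (0.70 ± 0.16 and 0.63 ± 0.16) and Gpat3 (0.66 ± 0.11 and 0.71 ± 0.11). Acss2 had 38.5, 38.1 and 42.2 CPM in siHnf4a cells, 38.5, 34.4 and 43.8 CPM in the double knockdown and 16.8, 16.0 and 17.7 CPM in siCon, with no overlap. Of the further sterol genes, 4 are given here. Ggps1, a synthase gene of the isoprenoid branch, rose in siHnf4a (log2 fold change 0.50 ± 0.14, adjusted p = 0.0355), and Soat2, a sterol esterification gene (-1.68 ± 0.42, adjusted p = 0.0217), and Tmem97 (-0.54 ± 0.12, adjusted p = 0.0153) fell. Npc1, which encodes a lysosomal cholesterol transporter, fell in siCebpa (-0.665 ± 0.122, adjusted p = 0.0168). None of these 4 passed in the double knockdown without the mouse block. With it Ggps1 was higher (adjusted p = 0.0289) and Soat2 (0.00216), Tmem97 (0.00830) and Npc1 (0.0126) were lower there, and Ggps1 was lower in siCebpa (0.0288) and Npc1 in siHnf4a (0.0209). Of 10 genes that control SREBP and ChREBP, among them Scap and the proteases Mbtps1 and Mbtps2, only Pgrmc1 passed without the mouse block, 10.0% of the list in each knockdown, and it rose in siHnf4a (0.65 ± 0.13), siCebpa (0.57 ± 0.13) and the double knockdown (0.66 ± 0.13). With the block 2 of the 10 passed with siHnf4a, 2 with siCebpa and 3 with both siRNAs. The block added Scap, higher in siHnf4a (adjusted p = 0.0336) and in the double knockdown (0.0394), the liver X receptor gene Nr1h2, lower in siCebpa (0.0127), and its relative Nr1h3, lower in the double knockdown (0.0441).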

How the data were processed

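Total RNA was sequenced on a BGISEQ-500 instrument per the labels' protocols, in 12 libraries from 3 mice and 4 groups. The submitters' processing notes list Trim Galore 0.6.4, kallisto 0.4.6 and GRCm38.p6. From these steps the authors deposited estimated counts per gene, not normalized and partly fractional, and TPM, scaled by the authors to gene length and library size. Annotation, strand setting and filters were not given. Of 55385 identifiers, 55144 matched GENCODE M21.

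The estimated counts were rounded and tested in R 4.3.3 with edgeR 4.0.16: filterByExpr (at least 0.418 CPM), TMM, a quasi-likelihood fit with 1 mean per group over all 12 libraries (8 residual degrees of freedom), two-sided contrasts, and Benjamini-Hochberg adjustment over the 15090 genes tested with a threshold of 0.05. CPM are TMM-scaled, and ± is the SE of a log2 fold change or the SD of a level. Per the design text, replicate numbers stand for the mice. Residuals of libraries from the same mouse correlated at 0.16 to 0.68 in 18 pairs, so the mouse was fitted as a block in an alternative (6 residual degrees of freedom). The others were RLE, no filter, at least 1 CPM in 3 libraries, DESeq2 1.42.0, limma 3.58.1 on log2(TPM + 1) or log2(TPM + 0.1), only the compared groups, and leaving out each library. Promoters and transcript words were searched in Python 3.11.15. The test without the block was also run on counts simulated from the siCon means without a mouse effect. Such counts cannot check it where libraries of the same mouse vary together.

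The members, gene lists and tests were chosen with earlier results of these data known. All 45 genes may be named, with values in every library for those past the threshold and for 10 fixed genes, and up to 4 genes past the threshold per further list, where all 5 of the fatty acid list are named. Other genes with values in every library were chosen after their values were seen. Some further sterol genes are not reported here.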

Additional observations from a re-analysis of the deposited data

How the results depend on the processing

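The mouse as a replicate block, an alternative since same-numbered libraries come from the same animal, raised the number of genes of the set past the threshold to 16 in siHnf4a against siCon, 5 in siCebpa against siCon, 12 in the double knockdown against siCon, 15 in the double knockdown against siCebpa and 19 in siHnf4a against siCebpa. Every gene past the threshold without the block stayed past it, and against siCon the block changed no call other than those named above. DESeq2 gave 10 in siHnf4a against siCon, 2 in siCebpa against siCon and 7 in the double knockdown against siCon. Against siCebpa it gave 6 in the double knockdown and 10 in siHnf4a. Limma on TPM gave 6 in the double knockdown against siCebpa with either pseudocount. Fitting only the compared groups gave 0 in siCebpa against siCon and 3 in siHnf4a against siCebpa. Leaving out 1 library gave 2 to 6 in siHnf4a against siCon, 0 to 1 in siCebpa against siCon, 4 to 7 in the double knockdown against siCon, 2 to 5 in the double knockdown against siCebpa and 3 to 9 in siHnf4a against siCebpa. The double knockdown against siHnf4a and the interaction gave 0 in every alternative run. Shares of all genes are given above only for edgeR with and without the mouse block, so the counts of the other alternatives lack that background. Why these counts moved was not tested.

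Some log2 fold changes that had not passed the threshold changed sign. In siCebpa against siCon, Srebf1 was -0.003 with the stricter filter and -0.185 and -0.188 on TPM, Srebf2 -0.079 and -0.08 and Hmgcs1 -0.137 and -0.139 on TPM, where the median of all genes also lay at -0.12 and -0.14. Leaving out 1 library, Srebf1 ranged from -0.125 to 0.129 with siHnf4a and from -0.05 to 0.066 with siCebpa, Hmgcs1 from -0.002 to 0.26 with siHnf4a, -0.083 to 0.088 with siCebpa and -0.035 to 0.305 with both siRNAs, Insig1 from -0.106 to 0.607, -0.14 to 0.322 and -0.117 to 0.649 in the same order, and Srebf2 from -0.057 to 0.109 in siCebpa. Scd1 ranged from -0.828 to 0.17 with siCebpa and -0.269 to 0.457 with both siRNAs, and Sqle from -0.226 to 0.015 and -0.234 to 0.019. Scd2 ranged from -0.209 to 1.118 in the double knockdown against siCebpa and from -0.098 to 1.134 in siHnf4a against siCebpa. With 3 mice per group and no mouse block the precision is limited by the spread between mice, and most of all for Scd2, Scd1, Dgat2 and Insig1. The block takes out the part of that spread that the libraries of a mouse share.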

Other observations

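Of 3 targets of carbohydrate-responsive transcription outside the set, only Txnip passed the threshold against siCon without the mouse block. That was 33.3% of the list in siHnf4a and in siCebpa, where 14.5% and 4.67% of all genes tested passed. Txnip, which encodes a thioredoxin-binding protein induced by glucose through ChREBP and its relative MondoA, had 134, 169 and 136 CPM in siHnf4a cells, 46.8, 24.8 and 27.8 CPM in siCebpa cells, 92.1, 83.7 and 76.5 CPM in the double knockdown, and 74.6, 68.1 and 49.0 CPM in siCon. It rose by 1.20 ± 0.23 on the log2 scale in siHnf4a (adjusted p = 0.00647) and fell by 0.95 ± 0.23 in siCebpa (adjusted p = 0.0431), and its change in the double knockdown was 0.40 ± 0.23 (adjusted p = 0.284). Pklr, the liver pyruvate kinase gene, had a log2 fold change of -1.11 ± 0.35 in siHnf4a (adjusted p = 0.0583, or 0.00664 with the mouse block) and -0.77 ± 0.35 in the double knockdown (adjusted p = 0.174, or 0.0406 with the block). Arrdc4, a relative of Txnip, had a log2 fold change of 0.25 ± 0.39 with siHnf4a, -0.44 ± 0.39 with siCebpa and -0.28 ± 0.39 with both siRNAs. The direct comparison of siHnf4a with siCebpa gave 2.14 ± 0.24 for Txnip (adjusted p = 0.000343), with no overlap of the libraries.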
